A study of Mus musculus with 36 samples.

Results

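The genes described here are 40 mouse genes of the amino acid response and of the stress response of the endoplasmic reticulum (ER), read from bulk RNAseq of bone marrow-derived macrophages (BMDMs). They were chosen by gene symbol as 20 genes of an ATF4 amino acid arm and 20 genes of an ER chaperone arm. All 40 symbols were found exactly once among the 17539 genes of the deposited table of normalized read counts, which is drawn from a count table of 55487 genes.

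The study asked how TNF changes the transcriptional program that IL4 and IL13 induce in macrophages, and which part of it depends on the kinase JNK. The cells were wild-type BMDMs grown in M-CSF from mice that were 8 to 10 weeks old, of strain C57BL/6 by the labels and male C57BL/6J by the study's methods. By their titles, the 36 samples form 12 groups of 3, crossing the solvent DMSO, SP600125 at 10 µM or Jnk-In-8 at 20 µM with a control, IL4/IL13, IL4/IL13 plus TNF, or TNF alone. SP600125 and Jnk-In-8 are JNK inhibitors. Each cytokine was used at 10 ng/ml, and stimulation lasted 6 h. The study's figure legends call replicates biological, but the sources used here do not say whether marrow was pooled.

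The 36 value columns of the tables carry running numbers that occur in no label. They were thus read as 1 unlabelled set, and none was tied to a treatment. Every expression value below describes that set or, where stated, a subset of its columns. For genes given with full values, the lowest, the median and the highest of 36 columns are shown. No replicate error and no test is available, and a difference between columns cannot be tied to a cytokine or an inhibitor.

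ATF4 is a transcription factor whose mRNA is translated more efficiently when the initiation factor eIF2 is phosphorylated, by the kinase GCN2 when amino acids are scarce and by PERK when unfolded proteins build up in the ER. Its known targets include genes for amino acid synthesis, amino acid import and the charging of tRNAs. The unfolded protein response of the ER also runs through the sensor IRE1, which splices Xbp1 mRNA, and through ATF6, which is cleaved and moves to the nucleus. XBP1 and ATF6 act on genes for chaperones, disulfide isomerases and the degradation of misfolded proteins, a machinery that macrophages use for secreted and surface proteins.

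Total counts per column ran from 19770573 to 38462661, with a median of 24398068, so depth limited only the lowest values. The smallest raw count behind any of the 40 genes was 14 reads, for Chac1, for which the exact Poisson 95% interval ran from 9.23 to 28.3 normalized counts. This interval covers counting error only. All 9 macrophage markers searched, among them Adgre1, Csf1r and Lyz2, were listed, with medians between 556 and 276148. Of 22 markers of other marrow-derived or stromal cells, 6 were listed, none with a median over 100, although Pecam1, an endothelial marker, reached 412 and Zbtb46, a dendritic cell marker, 239 in their highest columns. Their part in the values below was not tested. In bulk RNA, fewer cells of a type and less RNA per cell cannot be told apart.

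Promoter sequences were searched for the elements that ATF4 and the ER stress factors are known to bind. RefSeq promoter windows of GRCm38.p6, from 250 bases before to 50 bases after an annotated start, were found for 17 genes of each arm. The C/EBP-ATF element, searched as TGATGNAA on both strands, had a match in 5 of 17 ATF4 arm genes (29.4%), in 1 of 17 ER arm genes (5.88%) and in 4.51% of the 27025 genes with a window. The matched genes were Trib3, Chac1, Asns, Aars and Gars in the ATF4 arm and Herpud1 in the ER arm. In Trib3 the match lay after the annotated start, at positions 14 to 21, and its sequence is not shown. In the windows below, a position of -1 is the base before the start, and capitals mark the match. The Chac1 stretch lies at chr2:119351039-119351066 on the plus strand, with the match at -193 to -186. The Asns stretch lies at chr6:7693215-7693242 on the minus strand, with the match at -23 to -16. The Gars stretch lies at chr6:55037961-55037988 on the plus strand, with the match at -30 to -23. They are shown because Chac1 and Asns were among the most variable genes of the arm and Gars among the least.
Chac1: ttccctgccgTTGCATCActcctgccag
Asns: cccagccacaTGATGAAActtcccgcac
Gars: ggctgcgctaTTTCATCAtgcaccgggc

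The ER stress response element was searched as CCAAT and CCACG parted by any 9 bases, and its second form as ATTGG and CCACG parted by any single base, on both strands. Either form matched in 8 of 17 ER arm genes (47.1%), in 0 of 17 ATF4 arm genes and in 0.181% of the 27025 genes. The 8 genes were Hspa5, Hsp90b1, Calr, Canx, Dnajc3, Creld2 and Pdia6 for the first form and Herpud1 for the second. An unfolded protein response element of 8 letters, TGACGTGG, matched in no window of either arm and in 0.714% of genes. A match is a run of letters in this window and not a measured binding site. The Hspa5 stretch lies at chr2:34772015-34772053 on the plus strand, the Canx stretch at chr11:50325790-50325828 on the minus strand, and the Calr stretch at chr8:84847065-84847103 on the minus strand. The Herpud1 stretch lies at chr8:94386307-94386397 on the plus strand and is shown because it holds both kinds of match, the C/EBP-ATF element at -112 to -105 and the second ER form at -52 to -42. All of these stretches lie upstream of the annotated start.
Hspa5: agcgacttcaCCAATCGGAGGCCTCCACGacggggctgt
Canx: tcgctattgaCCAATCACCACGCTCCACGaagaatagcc
Calr: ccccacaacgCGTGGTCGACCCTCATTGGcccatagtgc
Herpud1: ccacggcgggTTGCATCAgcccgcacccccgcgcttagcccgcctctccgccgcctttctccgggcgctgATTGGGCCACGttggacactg

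In level, the full arms lay close together. The median over genes of the median normalized read count was 3178 in the ATF4 arm and 3582 in the ER arm, a ratio of 1.13. Without Xbp1, Atf6, Ern1 and Eif2ak3 the median of the ER arm was 5096 and the ratio 1.60. Per kilobase of exon, on lengths from the GENCODE M1 annotation, these medians were 921 and 993, a ratio of 1.08, against 151 over the 14609 genes with a length. Calr, a calcium-binding ER chaperone, had the highest median per kilobase of the 40 genes at 7156. Hspa5, which encodes the chaperone BiP, followed at 6971 per kilobase, and Atf4 at 4838. The lowest 3 medians per kilobase were those of Eif2ak3 at 173, Chac1 at 167 and Ddit4 at 80.7. The ranges of the arms overlapped widely.

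In spread, they lay apart. Spread was taken as the log2 ratio of the 90th to the 10th percentile over the columns, after adding 1 to each value. The median spread of the ATF4 arm was 2.21, with genes between 0.77 and 4.45, and that of the ER arm was 1.08, with genes between 0.47 and 3.58. The median over all 17539 genes was 1.09, with an upper quartile of 1.98. The ATF4 arm had 11 of 20 genes above that upper quartile and the ER arm 1 of 20, Ern1. The highest value exceeded the lowest more than 4-fold in 14 of 20 ATF4 arm genes and in 3 of 20 ER arm genes, Ern1, Pdia4 and Dnajb9, against 28.0% of all genes. Over the 11281 genes with a median of at least 100, which hold all 40 members, the median spread was 0.73 and 18.6% exceeded 4-fold.

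**Figure D1:**
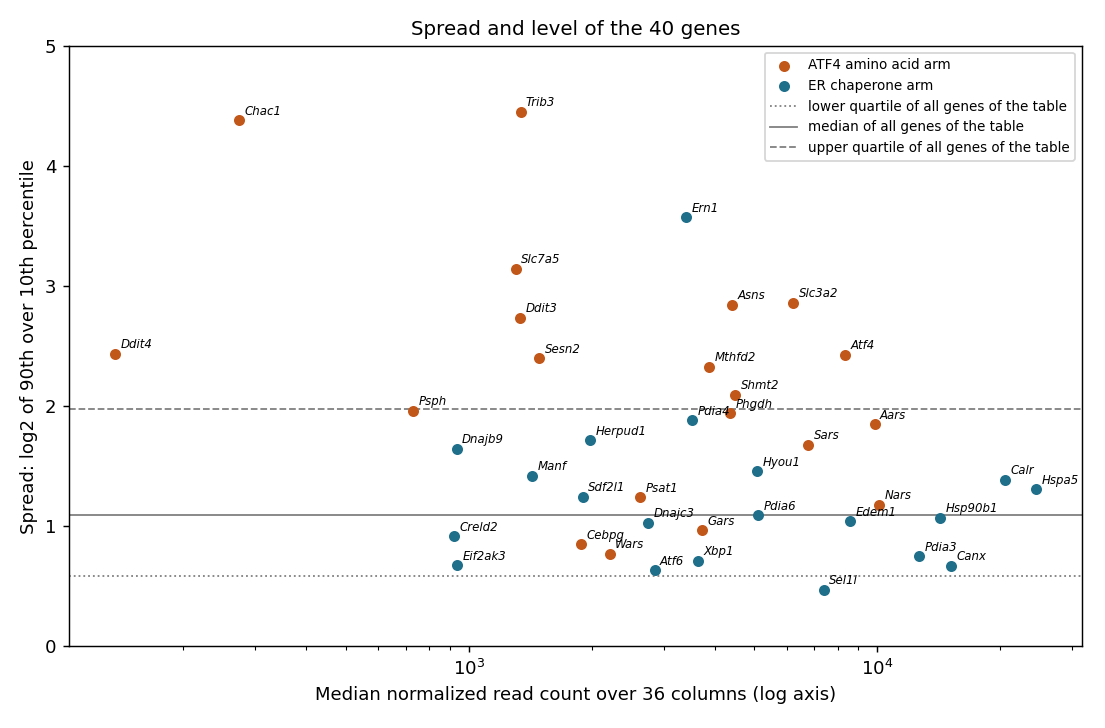
Spread of each gene (log2 of the 90th over the 10th percentile of normalized read counts plus 1) against its median normalized read count (log axis) over 36 columns, with lines at the quartiles of all genes. The ATF4 arm (orange) reaches from 0.77 to 4.45 and the ER arm (blue) from 0.47 to 3.58, and Ern1 is the ER arm gene above the upper quartile of 1.98.

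Among the factors of the ATF4 arm, Atf4 itself (ENSMUSG00000042406, chr15:80255184-80257545) ran from 2462 through a median of 8341 to 16814 normalized counts, a 6.83-fold range. Ddit3, which encodes the transcription factor CHOP, ran from 286 through 1336 to 3320, an 11.6-fold range. Its annotated span overlaps Mars1 and Mbd6, and the sources used here do not give whether reads were counted by strand. Cebpg, which encodes a C/EBP family partner of ATF4, ran from 1260 through 1880 to 2678. Its spread of 0.85 was below the all-gene median of 1.09 but above the 0.73 over genes with a median of at least 100. The spreads of Atf4 and Ddit3 were wider, at 2.43 and 2.74.

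Among the stress effectors, Trib3 and Chac1 held the widest ranges of the 40 genes. Trib3, a pseudokinase that binds ATF4 and restrains its activity, ran from 38.4 through 1339 to 1961 normalized counts, a 51.1-fold range with a spread of 4.45. Chac1, an enzyme that degrades glutathione, ran from 15.3 through 274 to 617, with a spread of 4.38. The spread of Trib3 exceeded that of 96.9% of all genes and the spread of Chac1 that of 96.7%. Sesn2, a leucine sensor upstream of mTORC1, had a spread of 2.40, and Ddit4, an inhibitor of mTORC1, a spread of 2.44 at a median of 136 counts. All 4 effectors were thus above the upper quartile.

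Of the 6 enzymes of asparagine, serine and folate metabolism, Asns varied most. Asns, asparagine synthetase, ran from 615 through 4420 to 7187 normalized counts, an 11.7-fold range with a spread of 2.85. The serine pathway enzymes Phgdh, Psph and Psat1 had spreads of 1.94, 1.96 and 1.24. The mitochondrial folate enzymes Shmt2 and Mthfd2 had spreads of 2.10 and 2.33. All 6 were above the all-gene median, and Psat1, whose highest value was 3.12-fold its lowest, stood lowest among them.

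The transporter genes Slc7a5 and Slc3a2 encode the light and heavy chains of a carrier for large neutral amino acids. Slc7a5 ran from 224 through 1302 to 3123 normalized counts, with a spread of 3.14. Slc3a2 ran from 2764 through 6238 to 27921, with a spread of 2.86. Their Spearman rho was 0.907 over the 36 columns, but -0.790 within the set of 12 columns described below. Slc3a2 had the higher median per kilobase, 2109 against 370.

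The aminoacyl-tRNA synthetases, which load amino acids onto tRNAs, were the steadiest class of the ATF4 arm. Aars and Sars had spreads of 1.85 and 1.68, Nars 1.18, Gars 0.97 and Wars 0.77. Gars ran from 2035 through 3731 to 4994 normalized counts, and Wars from 1222 through 2212 to 2796. Gars, Wars and Cebpg had the smallest spreads of the arm and were its only genes below the all-gene median.

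**Figure D2:**
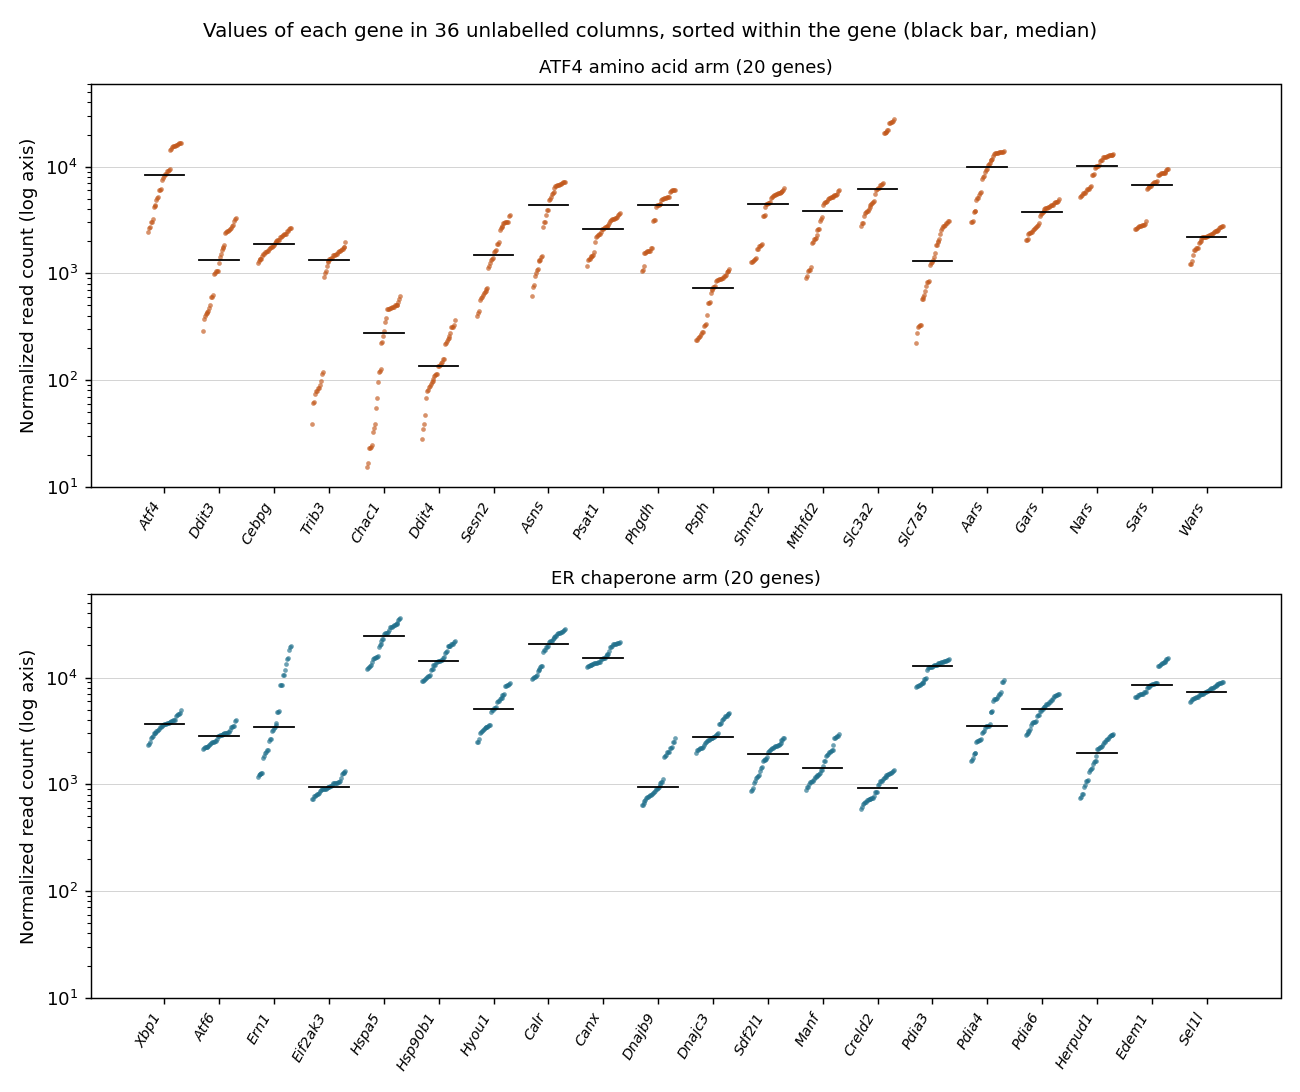
Normalized read counts (log axis) of each of the 40 genes in 36 unlabelled columns, as points sorted within the gene, with a black bar at the median. Trib3 spans 38.4 to 1961 and Chac1 15.3 to 617 in the upper panel, while Sel1l spans 5912 to 9091 and Canx 12632 to 21300 in the lower panel.

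The sensors of the ER arm differed among themselves. Ern1, which encodes IRE1α (ENSMUSG00000020715, chr11:106397620-106487796), ran from 1177 through 3406 to 19561 normalized counts, a 16.6-fold range with a spread of 3.58, higher than that of 93.0% of genes. Eif2ak3, which encodes PERK, ran from 720 through 937 to 1322, with a spread of 0.68. Atf6 ran from 2142 through 2849 to 3955, with a spread of 0.64. Xbp1, the mRNA that IRE1 splices, ran from 2348 through 3647 to 4939, with a spread of 0.71, and spliced and unspliced forms are not separated in counts per gene. Ern1 was thus the exception among 4 genes of which the other three were below the all-gene median.

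The chaperones were abundant and varied moderately. Hspa5 (ENSMUSG00000026864, chr2:34772090-34776529) ran from 11950 through 24490 to 36299 normalized counts, a 3.04-fold range. Hyou1, a large ER chaperone of the Hsp70 family, ran from 2480 through 5079 to 8863, with a spread of 1.46. Canx, the membrane-bound lectin chaperone calnexin, ran from 12632 through 15178 to 21300, with a spread of 0.67. Calr and Hsp90b1 lay between, with spreads of 1.39 and 1.07.

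Among chaperone partners and secreted factors, Dnajb9, a BiP cochaperone, stood out. It ran from 634 through 934 to 2700 normalized counts, with a spread of 1.65. Manf, a secreted ER stress factor, had a spread of 1.42 and Sdf2l1, an ER luminal BiP partner, of 1.25. Dnajc3 and Creld2 followed at 1.03 and 0.92.

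Of the disulfide isomerases, Pdia4 ran from 1660 through 3517 to 9566 normalized counts, with a spread of 1.88. Pdia6 and Pdia3 had spreads of 1.09 and 0.75. The genes of ER-associated degradation differed among themselves. Herpud1, a scaffold of the degradation complex, ran from 738 through 1979 to 2939, with a spread of 1.72, Edem1, which acts on misfolded glycoproteins, had a spread of 1.04, and Sel1l, the adaptor of the ubiquitin ligase, ran from 5912 through 7391 to 9091. Sel1l had the smallest spread of the 40 genes at 0.47, below the lower quartile of all genes (0.59).

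**Figure D3:**
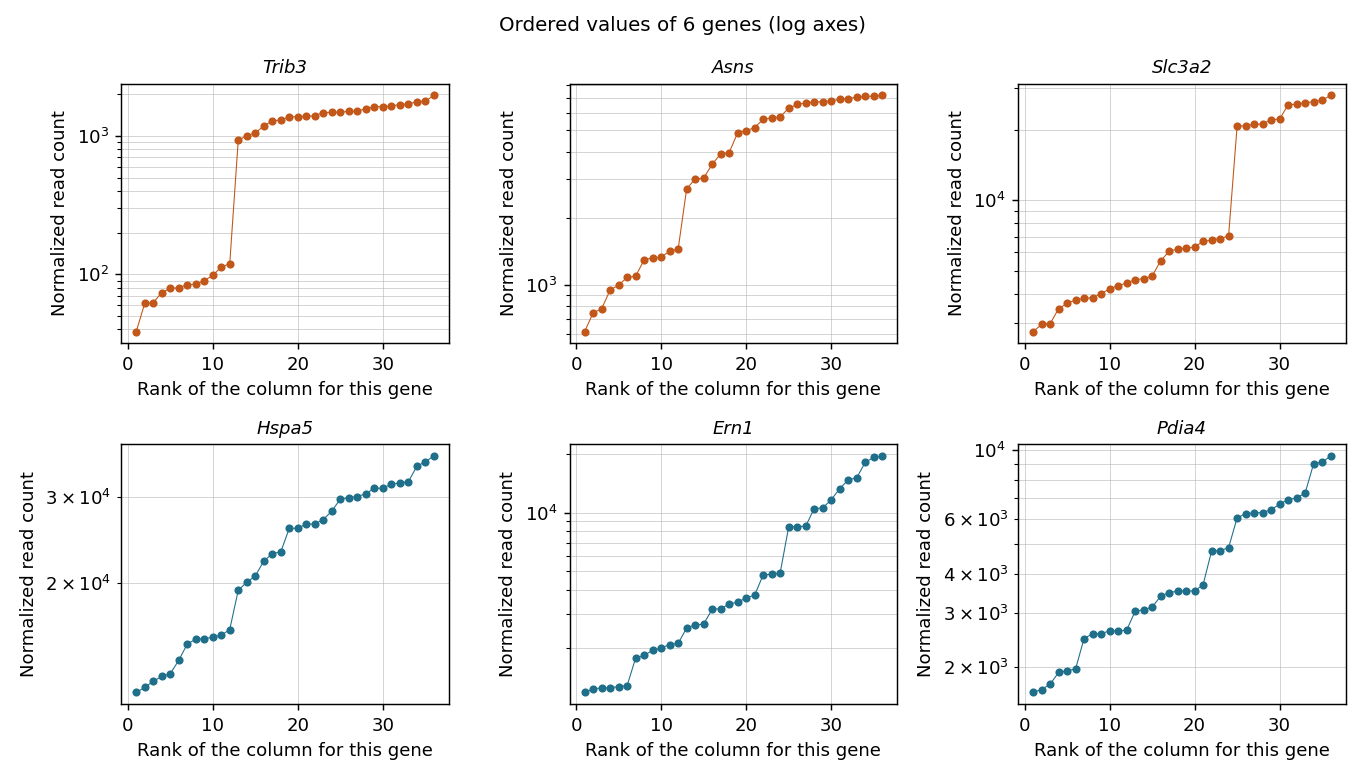
Normalized read counts (log axes) of Trib3, Asns, Slc3a2, Hspa5, Ern1 and Pdia4 in 36 columns, ordered within each gene, so that equal ranks in different panels need not be the same column. The steepest step lies between 119 and 927 for Trib3, between 7057 and 20624 for Slc3a2 and between 4878 and 8436 for Ern1, while Hspa5 has smaller steps between 11950 and 36299.

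In correlation over all 36 columns, the ATF4 arm was the tighter of the arms. Rank correlations were computed for each pair of genes over the 36 columns, which share libraries and scaling and, by the labels, come in sets of 3, so they are not independent points. The median Spearman rho was 0.895 over the 190 pairs within the ATF4 arm, 0.618 over the 190 pairs within the ER arm and 0.399 over the 400 pairs between arms. The median over all pairs of genes of the table was 5e-05. The coefficient was above 0.8 in 137 pairs within the ATF4 arm (72.1%), in 63 within the ER arm (33.2%) and in 25 between arms (6.25%). No pair within the ATF4 arm was negative, against 26 within the ER arm and 61 between arms. Pairs above 0.8 and negative pairs were not counted over all genes, so these counts have no background share.

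These medians mix separate sets of columns. A tree built on the genes that are not among the 40 parted the columns into sets of 12 and 24. Within the 24 columns the median rho was 0.878 in the ATF4 arm, 0.464 in the ER arm and -0.537 between arms, with 308 of the 400 pairs between arms negative. Within the 12 columns it was 0.119 in the ATF4 arm, 0.706 in the ER arm and 0.252 between arms. The order of the arms was thus the reverse there, with 81 of 190 pairs negative in the ATF4 arm and 12 of 190 in the ER arm. Over all pairs of genes of the table the median rho was -0.00085 within the 24 columns and 5e-05 within the 12. Negative pairs were not counted over all genes in either set, so these counts have no background share. The median spread within the 12 columns was 0.28 in the ATF4 arm, with genes between 0.07 and 0.54. In the ER arm it was 0.33, with genes between 0.14 and 1.57. The widest there were Pdia4 at 1.57 and Ern1 at 1.18. Within the 24 columns the median spreads were 1.79 in the ATF4 arm and 0.75 in the ER arm. The sign between arms within the 24 columns depended on how they were divided further, in ways chosen after seeing the data. In the 2 sets of 12 that the same tree gave when divided into 3 sets, the median rho between arms was -0.332 and -0.566. Below and above the largest gap of the ATF4 arm profile described below, it was 0.367 and 0.290, but this division uses the ATF4 arm's own values and so narrows the range over which they can be ranked.

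**Figure D4:**
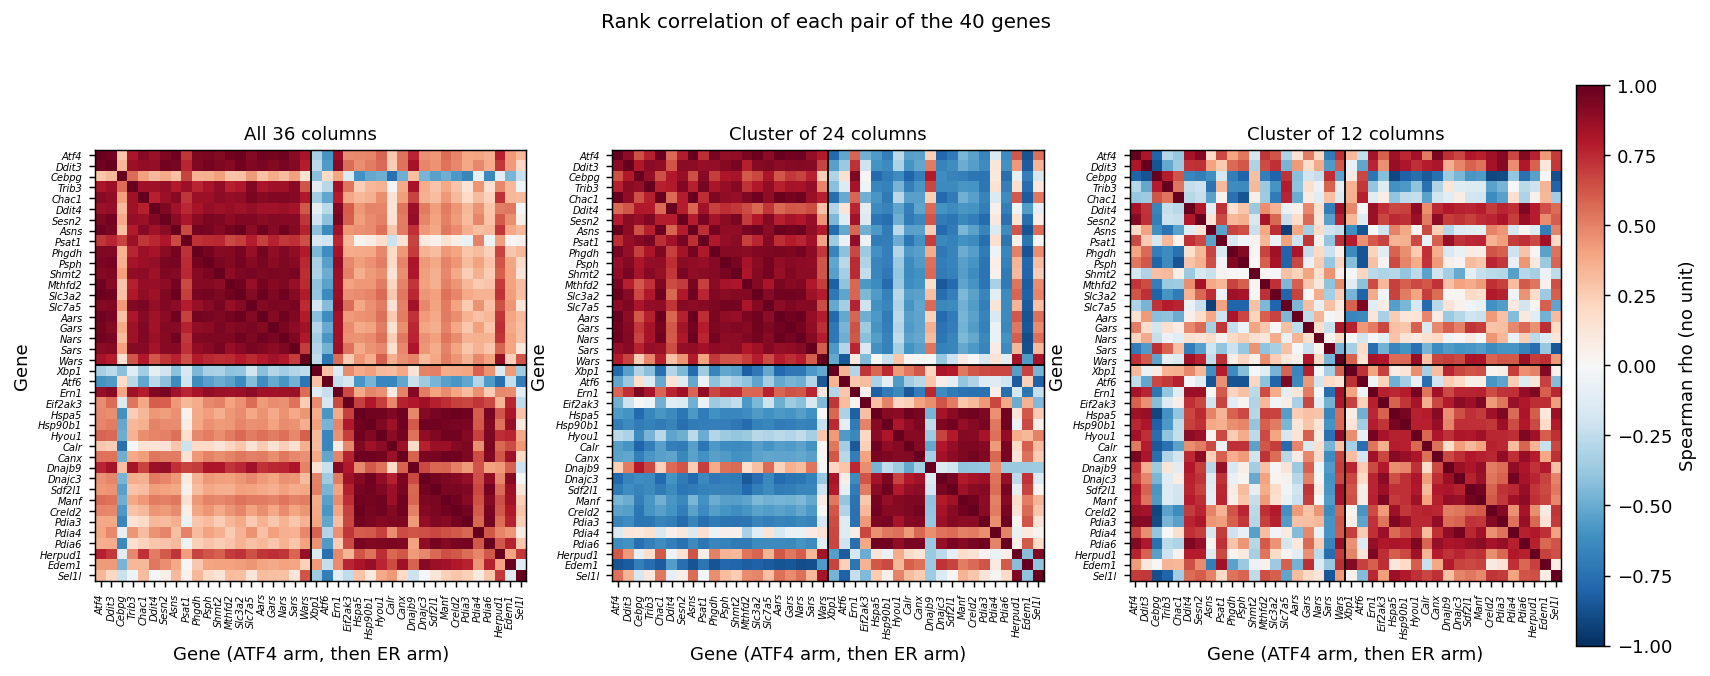
Spearman rho of each pair of the 40 genes, ATF4 arm first and ER arm after the black line, over all 36 columns, over the set of 24 and over the set of 12, on a colour scale from blue (negative) to red (positive). The block between the arms has a median of 0.399 over all columns and of -0.537 in the set of 24, and the ATF4 block a median of 0.119 in the set of 12.

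The closest pair of the ATF4 arm was Asns and Slc3a2 (rho 0.983), followed by Atf4 and Slc3a2 (0.981), Slc3a2 and Aars (0.979) and Asns and Aars (0.973). Aars with Nars and Atf4 with Asns came next, tied at 0.969. The 5 lowest pairs all held Cebpg, from 0.155 with Wars to 0.296 with Aars. In the ER arm the closest pair was Hspa5 and Creld2 (0.983), and Canx was in 3 of the next 4 pairs, with Hsp90b1 (0.975), Manf (0.972) and Hspa5 (0.971). Hsp90b1 and Dnajc3 made the fifth pair (0.970). The 5 lowest pairs of the ER arm all held Atf6, down to -0.758 with Herpud1 and -0.692 with Sel1l.

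Between the arms, Ern1 was in all of the 5 closest pairs. Its rho was 0.948 with Sesn2, 0.925 with Ddit4, 0.912 with Ddit3, 0.892 with Slc7a5 and 0.886 with Psph. Within the set of 12 columns 4 of these 5 pairs were also positive, and Ern1 with Slc7a5 was at -0.11. The lowest pairs between the arms were Cebpg with Calr (-0.747), Wars with Atf6 (-0.726), Cebpg with Pdia3 (-0.654), Cebpg with Pdia6 (-0.644) and Slc3a2 with Atf6 (-0.638).

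Each arm was then reduced to a profile, the median over its genes of the log2 value standardised over the columns. For the comparison of a gene with its own arm's profile, that profile was computed without the gene. All 20 genes of the ATF4 arm ranked closer to their own profile than to the other, from Cebpg at a rho of 0.305 to Slc3a2 at 0.980. In the ER arm 16 of 20 did, and the exceptions were Ern1 (0.446 with its own profile, 0.876 with the ATF4 profile), Dnajb9 (0.572 and 0.790), Herpud1 (0.595 and 0.719) and Sel1l (0.136 and 0.276). Atf6 was negative with both, at -0.487 and -0.590. Xbp1 had 0.415 with its own profile and -0.334 with the ATF4 profile.

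The profiles themselves had a Spearman rho of 0.498 and a Pearson r of 0.287 over 36 columns. Without the 2 columns farthest from the median of the ATF4 profile these were 0.530 and 0.268. Within the set of 24 columns rho was -0.624 and r -0.743, and within the set of 12 rho was 0.427 and r 0.388. The larger set was itself uneven, since 12 of its columns had an ATF4 profile of -0.948 or less and 12 of -0.204 or more. Within the 12 columns below this gap rho was 0.846 and r 0.881, and within the 12 above it rho was 0.175 and r 0.311, a division that is made on the ATF4 profile itself. The tree divided further, into 3 sets of 12, split the 24 columns into 2 sets that each held 6 columns from below and 6 from above the gap, and rho was -0.580 and -0.587 in them.

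**Figure D5:**
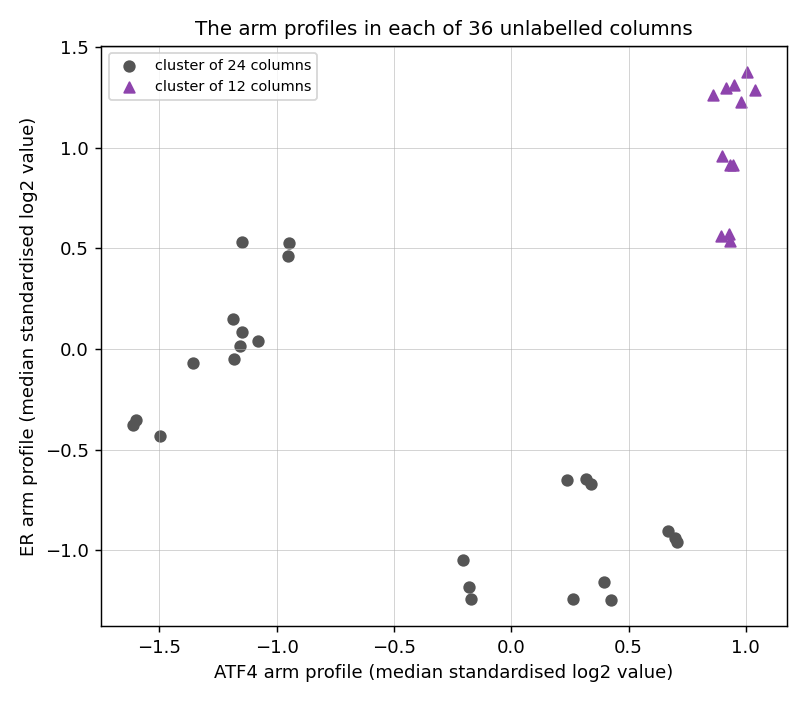
ER arm profile against ATF4 arm profile (each the median standardised log2 value, no unit) in each of 36 unlabelled columns, with the set of 12 columns as triangles and the set of 24 as circles. The triangles lie at 0.861 or more on the ATF4 axis and at 0.538 or more on the ER axis, and the circles form 2 clumps of 12, with a Pearson r of -0.743 over both and of 0.881 and 0.311 within the left and the right clump.

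The genes outside the 40 with the most similar ranks were named for each profile. For the ATF4 profile they were Eprs, a glutamyl-prolyl-tRNA synthetase (rho 0.968), Slc7a1, a carrier for cationic amino acids (0.963), Spring1 (0.961), Gm9892 (0.960) and Eif2s2, the beta subunit of eIF2 (0.959). For the ER profile they were Rpn1, a subunit of the oligosaccharyltransferase (0.985), P4hb, a protein disulfide isomerase (0.979), the cochaperone Bag3 (0.959), the Toll-like receptor adaptor Ticam1 (0.957) and Ddost, another oligosaccharyltransferase subunit (0.954). Eprs ran from 3256 through 7490 to 10574 normalized counts and Rpn1 from 3952 through 5714 to 7095.

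Longer lists of genes of the same pathways were looked up as well. Of 34 further amino acid response names, 30 were found. Their median rho was 0.664 with the ATF4 profile and 0.158 with the ER profile, 10 exceeded 0.8 with the ATF4 profile, against 2.97% of all genes, and 4 were negative. Of these 30 genes, 24 had a spread above the all-gene median and 13 above the upper quartile. Of 42 further ER names, 39 were found. Their median rho was 0.749 with the ER profile and 0.476 with the ATF4 profile, 13 exceeded 0.8 with the ER profile, against 2.27% of all genes, and 4 were negative. Of these 39 genes, 8 had a spread above the all-gene median and 1 above the upper quartile. The median spread was 0.69 against 1.56 in the longer amino acid response list. It was 0.73 over all genes with a median of at least 100, a level that most but not all genes of these lists reach. Over all genes of the table the median rho was -0.046 with the ATF4 profile and -0.045 with the ER profile.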

How the data were processed

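The authors deposited raw read counts per gene and normalized read counts, a signal without unit. Per the labels' processing notes, tools were FastQC 0.7.11, STAR 2.7.4a, featureCounts of Subread 2.0.1, GRCm38 and DESeq2 1.30.1; an annotation is not named in them. Each deposited signal value equalled the raw count divided by a median-of-ratios size factor between 0.729 and 1.61. RNA was poly(A)-enriched and sequenced on an Illumina NextSeq instrument.

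None of the 36 value columns of each table matched a sample label, so all were pooled as 1 set. Levels, spreads, Spearman rho and the tree of columns (average linkage on 1 minus Pearson r of log2 values plus 1) were computed with Python 3.11.15, NumPy 2.4.6, pandas 2.3.3 and SciPy 1.17.1, and tested on simulated data. Genes given with full values were the 5 of largest and 3 of smallest spread in each arm and the regulators, to which Hspa5 was added after its values were seen. Members and lists were chosen with earlier results of these data known. The annotated spans of 15 members overlap another gene in RefSeq. No test was run. Alternatives were CPM, Pearson r, subsets of genes and subsets of columns. For spread only, a pseudocount of 10 and the highest over the lowest value were also used, and for level only, values per kilobase.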

Additional observations from a re-analysis of the deposited data

How the results depend on the processing

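No column could be tied to a replicate, so no spread between replicates was available. A value was read as kept when it stayed within 1.5 times, or within 0.1 for a rho. The values that were not kept follow, with some kept values beside them. The median rho between arms, 0.399 over all columns, was -0.537 within the 24 columns, and -0.332 and -0.566 in the sets of 12 that divide them, a division chosen after seeing the data. Below and above the largest gap of the ATF4 profile in the 24, also chosen after seeing the data, the median rho was 0.367 and 0.290 between arms, 0.399 and 0.755 within the ATF4 arm and 0.374 and 0.469 within the ER arm. Between arms it was 0.252 within the 12 columns and 0.273 as Pearson r. The median rho within the ATF4 arm, 0.895, was 0.119 within the 12 columns. The median rho within the ER arm, 0.618, was 0.464 within the 24 columns, 0.455 and 0.731 in the sets that divide them, and 0.809 without Xbp1, Atf6, Ern1 and Eif2ak3. The cause was not tested. The ratio of levels, 1.13, was 1.60 without those 4 genes. Leaving out each column in turn gave 1.11 to 1.20 for the ratio of levels, 2.09 to 2.21 for the spread of the ATF4 arm, 1.06 to 1.08 for that of the ER arm, 1.01 to 1.15 for their difference, 0.887 to 0.903 for rho within the ATF4 arm, 0.592 to 0.636 within the ER arm and 0.357 to 0.430 between arms. CPM shifted all genes by -0.13 to 0.14 on the log2 scale between columns, and changed the spread of a member by at most 0.19. No paired analysis was possible because the columns carry no group and no replicate number. Depth limits only Trib3, Chac1 and Ddit4, whose smallest raw counts were 34, 14 and 22.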

Other observations

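Some genes of the longer lists were chosen for mention after their values were seen. Gdf15, a secreted stress cytokine and the only gene of these lists with a larger spread than any of the 40, ran from 58.1 through a median of 394 to 9300 normalized counts, with a spread of 6.31 and a rho of 0.840 with the ATF4 profile. Ppp1r15a, the stress-induced eIF2 phosphatase subunit, ran from 487 through 1532 to 7269, with a spread of 3.64 and a rho of 0.799. Eif2ak2, the eIF2 kinase PKR, had the lowest rho of the list with the ATF4 profile, -0.789. Atf3, counted with the ATF4 list, ranked closer to the ER profile (0.907) than to the ATF4 profile (0.662). In the ER list, Derl1, a component of ER-associated degradation, had 0.403 with the ER profile and 0.882 with the ATF4 profile.

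The values of several genes fell into separate sets of columns, a feature noticed after seeing the data. Trib3 had 12 columns at 38.4, 61.4, 62.1, 73.6, 79.1, 79.6, 84.1, 84.4, 89.8, 97.9, 113 and 119 normalized counts, and the other columns lay at 927, 1005, 1045, 1181, 1281, 1305, 1372, 1377, 1381, 1402, 1472, 1480, 1484, 1504, 1508, 1572, 1624, 1629, 1647, 1686, 1702, 1763, 1782 and 1961. The gap was 7.80-fold, and no column lay inside it. Slc3a2 had 24 columns at 7057 or less and 12 at 20624 or more, namely 20624, 20785, 21016, 21121, 22017, 22153, 25483, 25629, 26019, 26256, 26664 and 27921. Sars had 12 columns at 3120 or less and 24 at 6215 or more. The gap was 2.92-fold for Slc3a2 and 1.99-fold for Sars. Hspa5 had a small largest gap of 1.20-fold in a 3.04-fold range, with 12 columns at 16061 or less and 24 at 19307 or more.

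The columns in these sets were the same for many genes. The 12 lowest columns were the same as those of Trib3 in 16 of 20 genes of the ATF4 arm, Trib3 itself counted, and in 1 of 20 genes of the ER arm, Ern1, against 0.519% of all genes of the table. The 12 highest columns were the same as those of Slc3a2 in 10 genes of the ATF4 arm, itself counted, and in 7 of the ER arm, against 8.76% of all genes. The 12 lowest columns were the same as those of Hspa5 in 8 genes of the ER arm, itself counted, and in 0 of the ATF4 arm, against 0.416% of all genes. In the ATF4 arm 17 genes shared none of the 12, against 15.7% of all genes. Trib3, Slc3a2 and Hspa5 were chosen as references after their values were seen, and genes that rank alike share such sets. Which samples these columns are is not known.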
